A study of Homo sapiens with 12 samples.

Results

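The genes described are T-cell genes measured in the Hodgkin lymphoma cell lines U-HO1 and L-1236, both established lines of a tumour that derives from B cells. They are 10 named genes, THEMIS, TOX, CD2, CD3D, CD3E, CD4, LCK, ZAP70, LAT and TCF7, each read from the brightest probe set that the platform annotation assigns to that gene alone. Of these, 9 have such a row among the 18404 genes with a row of their own, and each of the 9 has only 1; TCF7 was not analysed here. The study used 12 one-colour whole-transcript arrays, 3 in each of 4 groups: L-1236 with control shRNA (siSCR in the sample names), L-1236 with shRNA against GATA-3 (siGATA-3), U-HO1 with control shRNA and U-HO1 with shRNA against GATA-3. All cells were transduced, kept in culture for 3 days and sorted by GFP, and each array received amplified RNA from 25000 cells. L-1236 grew in RPMI 1640 and U-HO1 in IMDM, so line and medium cannot be told apart. The 3 samples of a group are stated to be independent, but not whether they came from separate cultures, so p-values reflect only the spread between these arrays. The GATA3 values of arrays labelled knockdown and control overlapped in both lines, as given below, so a knockdown group is named here by its label only. In such bulk samples, fewer cells with a transcript and less of it per cell cannot be told apart.

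A T cell recognises antigen through a receptor whose CD3 chains carry the signal across the membrane. The kinase LCK, brought in by the coreceptors CD4 or CD8, phosphorylates the CD3 chains, ZAP70 docks there, and ZAP70 phosphorylates the scaffold LAT, on which signalling enzymes gather. THEMIS is an adaptor needed for thymocyte selection, TOX an HMG-box factor needed for CD4 lineage development and known from exhausted T cells, and TCF7 a factor of early T-cell commitment. Reed-Sternberg cells of Hodgkin lymphoma are known for losing much of the B-cell programme and for carrying some genes of other blood lineages.

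Levels are log2 values of the deposited table and are compared across arrays of the same gene, not between genes, because probe sets differ in how strongly they bind. The table gives no detection call. As a stand-in for rows with little or no transcript, the 371 rows of olfactory receptor genes, which lymphoid cells are not known to use, had a median of 5.88 in L-1236 and 5.92 in U-HO1. The 95th percentile of these rows was 6.73 in L-1236 and 6.78 in U-HO1. A gene inside this range was not shown to be above background, and a fold against such a level is a ratio of measured values.

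The T-cell genes fell into a small set that differed between the lines and a larger set at like levels in both. Of the larger set, LCK and LAT lay slightly above the olfactory receptor range and the others inside it. THEMIS and TOX were higher in U-HO1, by 27.5-fold and 10.6-fold on the control shRNA arrays, and CD4 was 3.25-fold lower. The CD3 chains, CD2, LCK, ZAP70 and LAT did not pass the test, with log2 differences from -0.08 to 0.11. By limma, at an adjusted p under 0.05 and a fold of at least 2, 2 of 9 genes were higher in U-HO1, against 2.69% of all 32321 probe sets, and 1 was lower, against 2.31%. In either direction this was 3 of 9 against 4.99%, but the genes were named with line differences already known, so nothing is read from that share. The median log2 difference of the 9 genes was 0.05, beside 0.00063 over all probe sets.

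**Figure D1:**
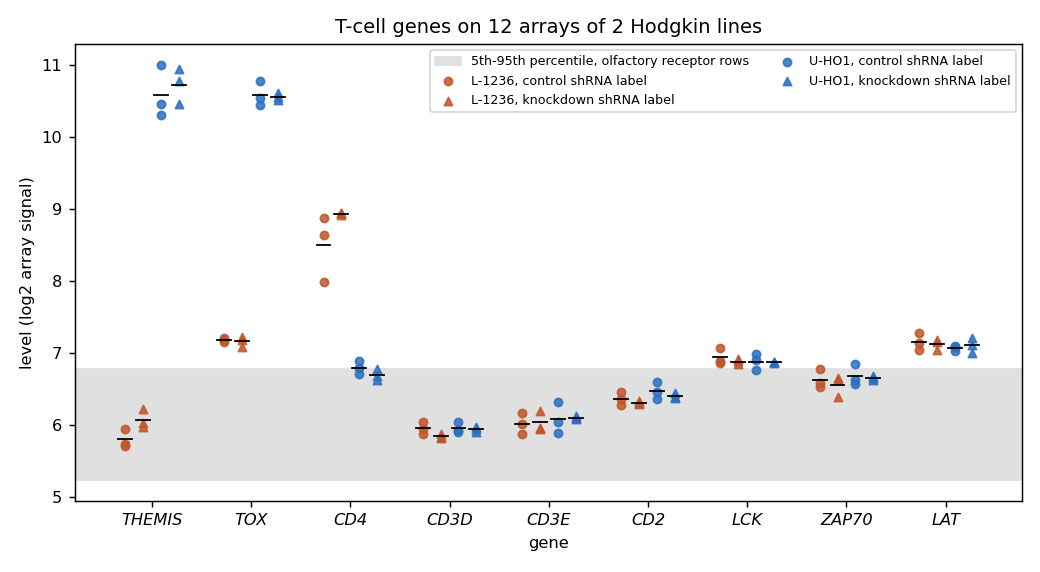
Level (log2 array signal) of 9 T-cell genes on each of 12 arrays; circles are arrays labelled control and triangles arrays labelled knockdown, black lines are means of 3 arrays, and the grey band spans the 5th to 95th percentile of the olfactory receptor rows over both lines. THEMIS and TOX stand at 10.3 or above on the U-HO1 arrays, CD4 at 7.99 or above on the L-1236 arrays, and the other 6 genes lie at like levels in both lines.

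The receptor chains come first. CD3D, which with CD3E forms a dimer of the receptor complex, read 6.05, 5.94 and 5.88 on L-1236 control arrays and 5.90, 6.05 and 5.93 on U-HO1 control arrays. The lines overlapped, and the log2 difference was 0.0032 (95% interval -0.15 to 0.15, limma adjusted p = 0.983). CD3E read 6.17, 5.88 and 6.01 in L-1236 and 6.04, 6.32 and 5.89 in U-HO1, again overlapping, with a difference of 0.07 (95% interval -0.18 to 0.31). In each line 53.6% of olfactory receptor rows lay below CD3D, so its level stood near the middle of that range. For CD3E 65.0% lay below in L-1236 and 68.7% in U-HO1.

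CD4, the coreceptor that binds MHC class II and is also found on monocytes and macrophages, was the gene higher in L-1236. It read 7.99, 8.65 and 8.87 on L-1236 control arrays and 8.94, 8.91 and 8.95 on those labelled knockdown. On the U-HO1 arrays it read 6.79, 6.89 and 6.72 (control) and 6.68, 6.63 and 6.78 (knockdown). Every L-1236 array was above every U-HO1 array, and the lowest L-1236 array, control replicate 1, lay apart from the other five. The mean on control arrays was 8.50 ± 0.46 (SD, n = 3) in L-1236 and 6.80 ± 0.09 in U-HO1, a log2 difference of -1.70 (95% interval -2.07 to -1.34, limma adjusted p = 1.24e-05). The U-HO1 level over all its arrays, 6.75, was inside the olfactory receptor range. The L-1236 level, 8.72, was above all 371 of those rows.

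CD2, the adhesion receptor by which T cells bind CD58 on other cells, read 6.46, 6.28 and 6.36 on L-1236 control arrays and 6.46, 6.60 and 6.37 on U-HO1 control arrays. The lines overlapped, with a difference of 0.11 (95% interval -0.06 to 0.27, limma adjusted p = 0.368). The level was inside the olfactory receptor range in both lines.

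LCK, the Src-family kinase that starts receptor signalling, read 7.07, 6.87 and 6.89 in L-1236 and 6.90, 6.98 and 6.77 in U-HO1 on control arrays. ZAP70, the kinase that binds phosphorylated CD3 chains, read 6.78, 6.54 and 6.58 in L-1236 and 6.62, 6.85 and 6.57 in U-HO1. Neither separated the lines, with differences of -0.06 (95% interval -0.23 to 0.11) for LCK and 0.05 (95% interval -0.16 to 0.26) for ZAP70. ZAP70 was inside the olfactory receptor range in both lines, and LCK stood slightly above its upper end in both. The scaffold LAT read 7.29, 7.04 and 7.15 in L-1236 and 7.03, 7.10 and 7.09 in U-HO1. LAT too lay slightly above the range in both lines, and its difference was -0.08 (95% interval -0.26 to 0.09). Over these 6 genes the 95% intervals allowed a difference of up to 1.24-fold between the lines, and limma adjusted p ran from 0.368 to 0.983.

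THEMIS was the gene of the 9 that differed most. It read 5.74, 5.72 and 5.96 on L-1236 control arrays and 6.23, 6.03 and 5.98 on those labelled knockdown. On U-HO1 arrays it read 10.45, 10.30 and 11.00 (control) and 10.45, 10.95 and 10.78 (knockdown). No U-HO1 array came near an L-1236 array. The means on control arrays were 10.59 ± 0.37 (SD, n = 3) and 5.80 ± 0.13, a log2 difference of 4.78 (95% interval 4.41 to 5.16), given as a description because this difference was known when the gene was chosen. It ranked 15 of 32321 probe sets by size. In L-1236 57.4% of olfactory receptor rows lay below THEMIS, so the fold is against a level not shown to be above background. Within U-HO1 THEMIS also varied more than TOX, with a range over 6 arrays of 0.70 against 0.33. THEMIS2, the related gene of B cells and macrophages, did not pass the test, with a difference of 0.27 (SE 0.13, limma adjusted p = 0.156) and means of 6.75 in L-1236 and 7.09 in U-HO1 over all arrays.

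TOX read 7.16, 7.21 and 7.19 on L-1236 control arrays and 10.55, 10.44 and 10.77 on U-HO1 control arrays. The arrays labelled knockdown read 7.19, 7.09 and 7.23 in L-1236 and 10.55, 10.51 and 10.61 in U-HO1. The lines were apart on all arrays, while arrays of 1 line differed by at most 0.14 in L-1236 and 0.33 in U-HO1. The means on control arrays were 10.59 ± 0.17 (SD, n = 3) in U-HO1 and 7.19 ± 0.02 in L-1236, a log2 difference of 3.40 (95% interval 3.22 to 3.58, limma adjusted p = 1.28e-10). The L-1236 level was above the 95th percentile of olfactory receptor rows, with 98.7% of them below it. Among the other HMG-box genes of the TOX family, TOX2 differed by 0.63 (SE 0.12, adjusted p = 0.00192), TOX4 by 0.69 (SE 0.11, adjusted p = 0.000468) and TOX3 by 0.10 (SE 0.09, adjusted p = 0.511) in the same limma test, all short of 2-fold.

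**Figure D2:**
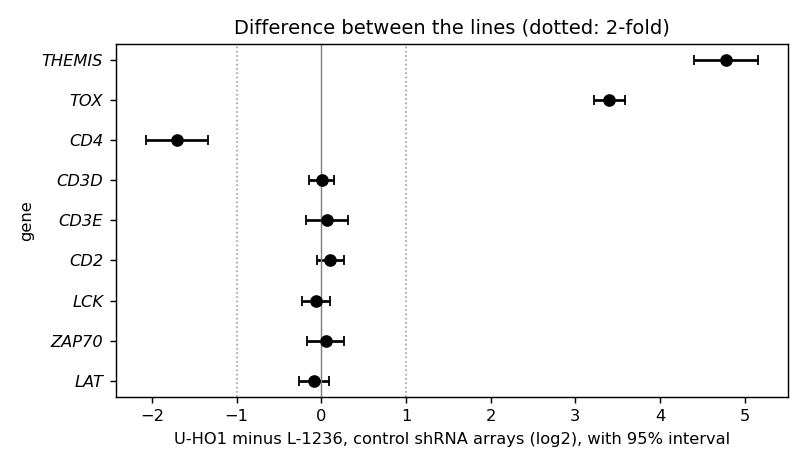
Log2 difference of each gene between U-HO1 and L-1236 on control shRNA arrays (points) with its 95% interval from limma (bars); dotted lines mark 2-fold. THEMIS at 4.78 and TOX at 3.40 lie to the right and CD4 at -1.70 to the left, and the intervals of the other 6 include 0.

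The genes whose profile over the 12 arrays was most like these 3 were found by the root mean square distance after centring each gene on its own mean, among 18403 other genes. For THEMIS they were PIK3CG (distance 0.187), a phosphoinositide kinase of leukocytes, the phospholipase DDHD1 (0.209) and the small nucleolar RNA SNORD116-15 (0.231). PIK3CG had means of 6.34 in L-1236 and 11.13 in U-HO1. For TOX they were ANO10 (0.124), the epithelial ETS factor EHF (0.125) and ATXN7L1 (0.136). EHF had means of 5.59 and 8.93. For CD4 they were GLIPR1 (0.144), TMEM145 (0.156) and KIAA0040 (0.159), and GLIPR1 had means of 7.68 in L-1236 and 5.54 in U-HO1. The distances are dominated by the difference between the lines.

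The start regions of the genes were read for GATA motifs because the shRNA targets a GATA factor. Whether a motif bears on any level here was not tested. RefSeq (GRCh38.p14) start sites were used here for 7 of the 10 genes, with 14 windows of the 250 bases upstream. CD3E, CD4 and TOX are not among them. For the 10 genes, windows on the chromosome of TOX were left out, though not from the count over all windows. A GATA motif on either strand (AGATAA or the form AGATAG, and with T in front TGATAA or the form TGATAG) was found in 4 of the 14 windows, which belong to THEMIS, LCK and CD3D. Of all 35116 such windows 22.3% hold one. The 4 windows are shown because they set a gene that is high in U-HO1 beside genes at like levels in both lines. The motif is in capitals and each sequence runs 5′ to 3′ on the strand of its gene.
THEMIS, chr6:127918596-127918845, minus strand: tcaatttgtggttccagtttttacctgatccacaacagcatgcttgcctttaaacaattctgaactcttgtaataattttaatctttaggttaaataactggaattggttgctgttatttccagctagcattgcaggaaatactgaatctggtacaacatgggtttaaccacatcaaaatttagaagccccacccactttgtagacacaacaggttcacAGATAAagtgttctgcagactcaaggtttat
LCK, chr1:32251015-32251264, plus strand: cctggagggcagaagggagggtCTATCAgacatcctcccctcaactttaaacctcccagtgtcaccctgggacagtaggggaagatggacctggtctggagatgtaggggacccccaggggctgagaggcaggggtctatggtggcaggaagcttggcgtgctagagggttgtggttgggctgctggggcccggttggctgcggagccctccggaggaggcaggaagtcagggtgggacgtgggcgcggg
LCK, chr1:32273871-32274120, plus strand: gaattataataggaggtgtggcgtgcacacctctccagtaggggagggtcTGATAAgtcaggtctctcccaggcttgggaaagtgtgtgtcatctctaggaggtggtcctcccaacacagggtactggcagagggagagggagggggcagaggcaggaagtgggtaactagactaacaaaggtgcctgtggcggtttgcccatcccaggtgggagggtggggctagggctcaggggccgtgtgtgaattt
CD3D, chr11:118342706-118342955, minus strand: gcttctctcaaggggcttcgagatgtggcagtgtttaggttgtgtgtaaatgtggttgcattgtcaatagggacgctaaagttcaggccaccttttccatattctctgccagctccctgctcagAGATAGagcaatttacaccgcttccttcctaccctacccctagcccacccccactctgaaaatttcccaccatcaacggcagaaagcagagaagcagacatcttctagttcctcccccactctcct
In the first LCK window the motif stands on the opposite strand. The other windows, of THEMIS (2), ZAP70 (3), LAT (2), TCF7 (2) and CD2 (1), hold none of these letters. The letters TGTGGT on either strand, a RUNX motif, stand in 3 of the 14 windows, the THEMIS, CD3D and first LCK windows printed here, and in 11.0% of all windows. A match in such a window is a description of its letters only.

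The remaining T-cell genes were taken from 4 lists with 84 names, of which 76 have a row. Of these, 7 were higher and 7 lower in U-HO1 by limma at an adjusted p under 0.05 and a fold of at least 2. The other 62 did not pass, so 18.4% passed beside 4.99% of all probe sets. All probe sets include 11775 without a gene symbol, and the lists were chosen with earlier results known, so nothing is read from that share. Of the 76 genes, 52 lay above the olfactory receptor range in L-1236 and 53 in U-HO1. Among receptor chains, coreceptors and costimulatory receptors, 13 of 17 have a row and only CD27 passed. CD27, a costimulatory receptor also carried by memory B cells, was lower in U-HO1 by 2.80-fold, at 7.24 ± 0.12 against 8.72 ± 0.46 (SD, n = 3, limma adjusted p = 0.000391). CD247, the signalling zeta chain of the receptor, differed by -0.23 (SE 0.08), ICOS by 0.18 (SE 0.07) and the receptor constant region TRBC1 by -0.14 (SE 0.08), none of which passed. In both lines 9 of the 13 lay inside the olfactory receptor range. The other 4, CD6, CD7, CD8B and CD27, lay above it in both. CD7 had means of 8.31 in L-1236 and 8.33 in U-HO1 over all arrays. The mean over the 13 genes ran from 6.54 to 6.63 on the L-1236 arrays and from 6.42 to 6.60 on the U-HO1 arrays. These ranges overlapped.

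Receptor signalling genes differed in both directions, with 4 higher and 3 lower in U-HO1 of 32 with a row. LCP2, the adaptor SLP-76 that joins LAT to its effectors, stood 7.46-fold below L-1236 in U-HO1, at 6.55 ± 0.15 against 9.45 ± 0.28 (SD, n = 3, limma adjusted p = 3.11e-08), and its U-HO1 level was inside the olfactory receptor range. FYN, the Src-family kinase related to LCK, was raised 2.40-fold in U-HO1, at 8.06 ± 0.09 against 6.80 ± 0.05 (limma adjusted p = 2.49e-07). The phosphatase PTPN22, which acts against LCK and ZAP70, was 3.34-fold higher, and PAG1, which recruits the inhibitory kinase CSK, 2.62-fold higher. The others that passed, named after their values were seen, were the kinase PRKCQ, 2.75-fold higher against an L-1236 level inside the olfactory receptor range, the adaptor SH2D2A, 3.31-fold lower, and MALT1, 2.07-fold lower. The median log2 difference of the list was -0.03.

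Of 22 T-cell transcription factors with a row, 2 were higher and 2 lower. RUNX1, a factor of early blood and T-cell development, was raised 4.21-fold in U-HO1, at 10.01 ± 0.13 against 7.93 ± 0.14 (SD, n = 3, limma adjusted p = 4.3e-08). EOMES, a T-box factor of cytotoxic cells, was 2.80-fold lower and IKZF2, found in regulatory T cells, 2.04-fold lower. ETS1 was 1.94-fold lower, short of the fold limit (limma adjusted p = 0.000227). ID2, which passed and is named after its value was seen, was 2.16-fold higher. LEF1, the nearest relative of TCF7, had means of 9.68 in L-1236 and 9.04 in U-HO1 and differed by -0.53 (SE 0.17), also short of 2-fold. The list's median difference was -0.05.

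Among 9 ligands and partners of CD2, SLAMF1, a receptor of the same family, stood 7.82-fold below L-1236 in U-HO1, at 7.30 ± 0.14 against 10.26 ± 0.18 (SD, n = 3, limma adjusted p = 2.14e-09). CD59, a complement inhibitor reported to bind CD2, was 3.16-fold higher. CD58, the main ligand of CD2, was 1.88-fold higher (limma adjusted p = 0.000114) and CD244, a receptor of cytotoxic cells, 1.61-fold higher against an L-1236 level inside the olfactory receptor range, both short of 2-fold.

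**Figure D3:**
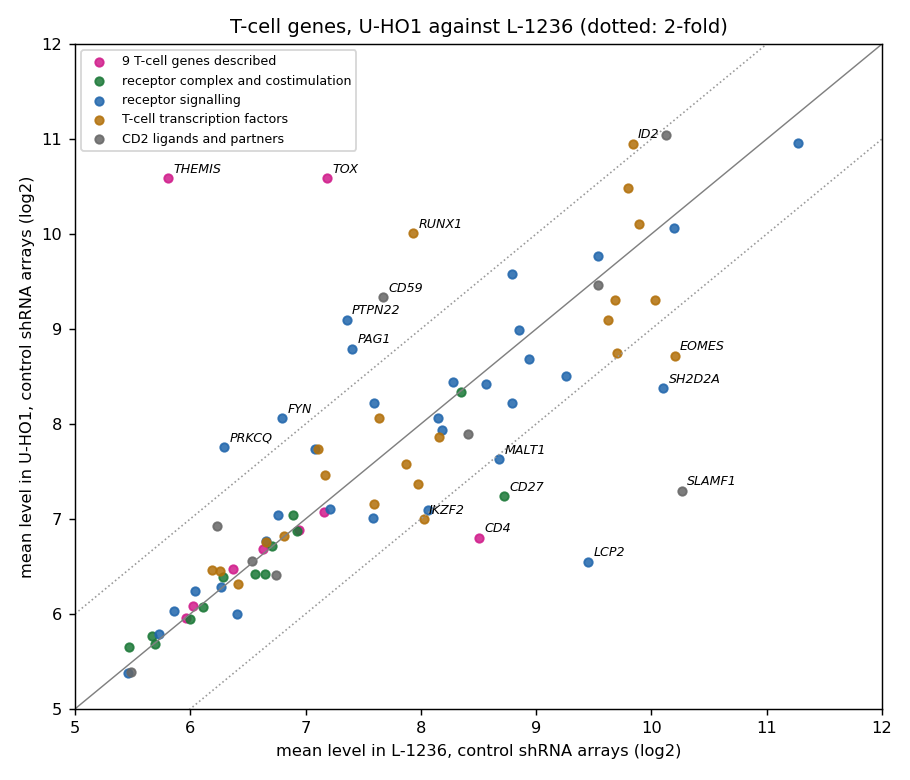
Mean level (log2) of each T-cell gene on U-HO1 against L-1236 control shRNA arrays, coloured by list; the solid line marks equal levels and dotted lines 2-fold, and genes that passed the limma test with a fold of at least 2 are named. Of the 76 genes outside the 9 described, 7 lie above and 7 below the dotted lines as named points.

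Markers of the tumour and of other cells were read the same way. All 13 Hodgkin cell markers lay above the olfactory receptor range in both lines. Of them 3 were higher and 4 lower in U-HO1, among them TRAF1, 7.62-fold higher, and CD40, 3.88-fold lower. B-cell markers had 1 higher and 4 lower of 16, with PAX5, the B-lineage factor, at 7.64 ± 0.10 in U-HO1 against 9.61 ± 0.35 in L-1236 (SD, n = 3, limma adjusted p = 7.12e-06) and CD22 5.83-fold lower, to a U-HO1 level inside the olfactory receptor range. The 1 higher was CD24, by 3.29-fold (limma adjusted p = 9.28e-06), against an L-1236 level inside the olfactory receptor range. Of the 16 B-cell markers, 10 lay above that range in L-1236 and 9 in U-HO1. The B-cell gene MS4A1 had means of 5.72 in L-1236 and 5.79 in U-HO1, inside the olfactory receptor range. Cytotoxic and natural killer markers had 0 of 13 called and a list mean from 6.31 to 6.43 on L-1236 and from 6.44 to 6.54 on U-HO1 arrays. Of these 13 markers, 6 lay above the olfactory receptor range in both lines. Myeloid markers, given because myeloid cells also carry CD4, had 0 of 10 called and a list mean from 6.25 to 6.43 on L-1236 and from 6.24 to 6.41 on U-HO1 arrays. CSF1R, the receptor for the macrophage growth factor, was above the olfactory receptor range in both lines, at 7.28 ± 0.08 in L-1236 and 7.03 ± 0.09 in U-HO1 (SD, n = 3), a difference of -0.25 that did not pass (SE 0.10, unadjusted p = 0.0292, limma adjusted p = 0.0959). FCN1, a lectin of monocytes, was also above that range, at 6.96 and 6.97. The other 8 of the 10 myeloid markers lay inside the olfactory receptor range in both lines. Among these, the monocyte gene CD14 had means of 6.54 in L-1236 and 6.60 in U-HO1. How the CD4 difference relates to myeloid genes in these lines was not tested.

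GATA3, the target of the shRNA, read 10.29, 10.69 and 9.95 on L-1236 control arrays and 10.80, 10.00 and 10.24 on those labelled knockdown. In U-HO1 it read 11.24, 10.90 and 10.24 on control arrays and 11.07, 10.12 and 10.22 on those labelled knockdown. The labels overlapped in both lines, with log2 differences of 0.03 in L-1236 (exact two-sided permutation p = 0.9) and -0.32 in U-HO1 (exact permutation p = 0.5), where 3 arrays against 3 allow no p under 0.1. In U-HO1 single arrays moved this value. Without knockdown replicate 1 it was -0.62 (exact permutation p = 0.2), and the labels then no longer overlapped, at 10.12 and 10.22 against 10.24 to 11.24. Without control replicate 3 it was -0.60, without control replicate 1 -0.10, without knockdown replicate 2 -0.15 and without knockdown replicate 3 -0.20. Directions between the labels below are therefore those of libraries labelled knockdown and control.

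The study compared the labels to find genes that depend on GATA-3. Because GATA3 was not shown to differ between them, the counts here describe arrays by label and do not bear on that dependence. In L-1236 0 of 9 passed the criteria the submitters state (a false discovery rate up to 25% with a fold from 1.5) by limma, as did 0% of all probe sets, and 1 of 9, CD4, had an unadjusted p under 0.05 beside 1542 of 32321. In U-HO1 0 of 9 passed, as did 0% of all probe sets, and 0 of 9 had an unadjusted p under 0.05 beside 339 of 32321. For the difference between the lines in this effect, 0 of 9 had an adjusted p under 0.05, as did 0% of all probe sets, and 1, CD4, had an unadjusted p under 0.05 beside 795 of 32321. The smallest adjusted p of the 9 was 0.925 in L-1236 and 1 in U-HO1 by limma.

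CD4 showed the largest difference by label, 0.43 in L-1236 (95% interval 0.07 to 0.80, limma unadjusted p = 0.0247, adjusted p = 0.925). All 3 L-1236 arrays labelled knockdown, at 8.91 to 8.95, lay above the control arrays, at 7.99 to 8.87. In U-HO1 the difference was -0.10 (95% interval -0.47 to 0.27), and the difference between the lines was -0.53 (95% interval -1.05 to -0.01, unadjusted p = 0.0449, limma adjusted p = 1). Without L-1236 control replicate 1, CD4 differed by 0.18 in L-1236 and by -0.28 between the lines. With the first knockdown and the third control array of each line left out, where GATA3 goes against the label, it differed by 0.61 in L-1236 (limma adjusted p = 0.465).

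THEMIS differed by 0.28 between the labels in L-1236 (95% interval -0.10 to 0.65), at levels inside the olfactory receptor range, and by 0.14 in U-HO1 (95% interval -0.24 to 0.51). With single arrays left out the U-HO1 difference ran from -0.0032 (without control replicate 2) to 0.35 (without control replicate 3). With the first knockdown and the third control array of each line left out it was 0.48 (limma adjusted p = 0.677). Those arrays were picked by their GATA3 values after the data were seen. This value and the array-by-array comparison of THEMIS with GATA3 below are therefore not separate observations. TOX differed by -0.02 in L-1236 (95% interval -0.20 to 0.17) and by -0.03 in U-HO1 (95% interval -0.21 to 0.16). The other 6 genes differed by -0.11 to 0.02 in L-1236 and by -0.06 to 0.04 in U-HO1. The labels did not overlap for 3 of 9 genes in L-1236, beside 10.7% of all probe sets: THEMIS and CD4 were higher and CD3D lower on arrays labelled knockdown. In U-HO1 this held for 0 of 9, beside 3.79%.

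Because the labels do not order GATA3, its level is also given beside THEMIS array by array. In U-HO1 the arrays with GATA3 at 11.24, 11.07 and 10.90 had THEMIS at 10.45, 10.45 and 10.30. The arrays with GATA3 at 10.24, 10.22 and 10.12 had THEMIS at 11.00, 10.78 and 10.95. GATA3 thus lay in 2 separate clusters of 3 arrays, each with arrays of both labels, and THEMIS was higher on the arrays of the lower one. The other measured T-cell genes, TOX among them, overlapped between the 2 clusters. How many of all probe sets separate the clusters was not counted, so no link between GATA3 and THEMIS is read from this. The pattern was noticed after the values were seen and is given without a test. TOX on the same arrays, in the same order, read 10.55, 10.55 and 10.44, then 10.77, 10.61 and 10.51. The lowest U-HO1 values of THEMIS and TOX, 10.30 and 10.44, were both on control replicate 2. That array had the narrowest spread over all probe sets of its line. In L-1236 the arrays with GATA3 at 10.80, 10.69 and 10.29 had THEMIS at 6.23, 5.72 and 5.74. Those with GATA3 at 10.24, 10.00 and 9.95 had THEMIS at 5.98, 6.03 and 5.96, all inside the olfactory receptor range.

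**Figure D4:**
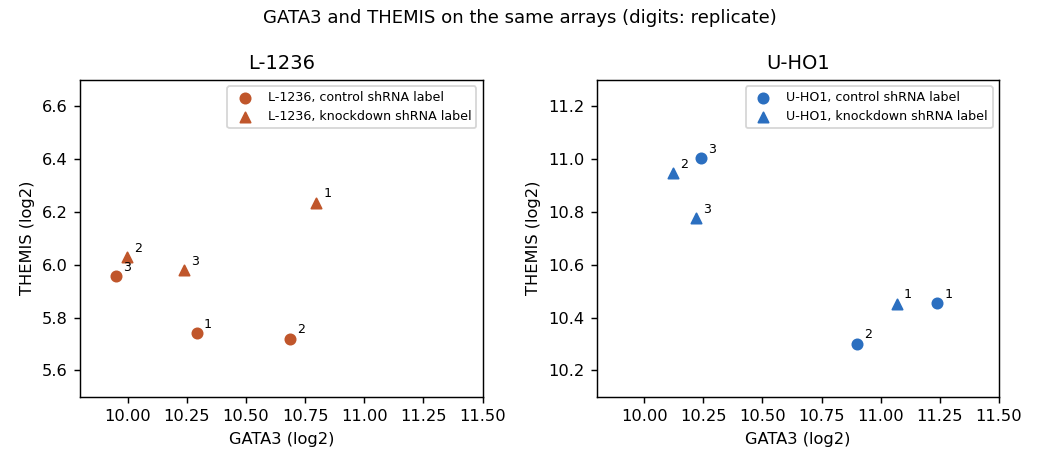
THEMIS level against GATA3 level (both log2) on the 6 arrays of L-1236 (left) and of U-HO1 (right), with digits giving the replicate; both vertical axes span the same number of log2 units but start at different levels. In U-HO1 the arrays with GATA3 from 10.12 to 10.24 have THEMIS from 10.78 to 11.00, and those with GATA3 from 10.90 to 11.24 have THEMIS from 10.30 to 10.45.

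The small array-to-array changes of the 6 genes at like levels in both lines moved with the array. Their mean was highest on L-1236 control replicate 1, at 6.63 against 6.40 to 6.50 on the other L-1236 arrays, and on U-HO1 control replicate 2, at 6.65 against 6.44 to 6.55. On each of these arrays 5 of the 6 genes had their highest value of the line. The median of the olfactory receptor rows was highest on the same arrays, at 5.95 in L-1236 and 5.96 in U-HO1. These arrays also had the narrowest spread over all probe sets of their line, with SDs of 1.62 and 1.65. CD4 in L-1236 had its lowest value on the first of them. Without L-1236 control replicate 1, the 6 genes differed by label from -0.07 to 0.09 in L-1236, beside -0.11 to 0.02 with all arrays. Without U-HO1 control replicate 2, they differed from 0.0017 to 0.14 in U-HO1, beside -0.06 to 0.04. How far the spread of these arrays bears on the differences by label was not tested.

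**Figure D5:**
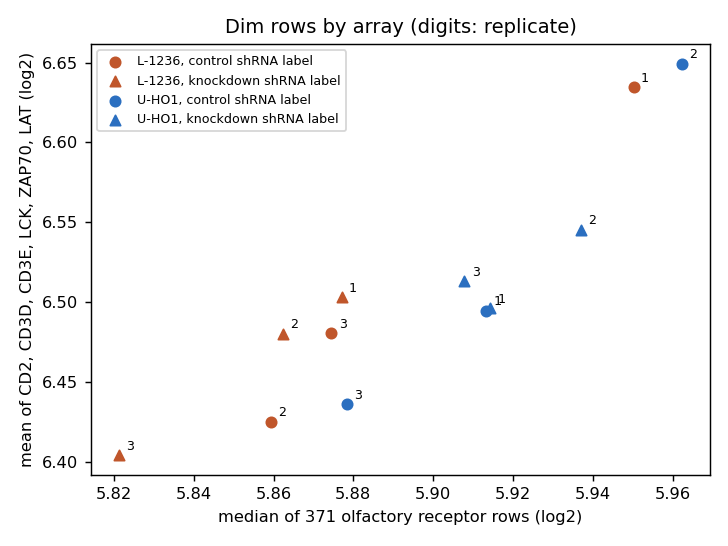
Mean log2 level of CD2, CD3D, CD3E, LCK, ZAP70 and LAT against the median of 371 olfactory receptor rows, 1 point per array, with digits giving the replicate. L-1236 control replicate 1 and U-HO1 control replicate 2 stand at the upper right, at 6.63 and 6.65.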

How the data were processed

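The values are the log2 table the authors deposited from 12 one-colour Affymetrix whole-transcript arrays, taken as log2 from their range; the submitters' processing notes name R 2.8.1, and the normalization is not given in the sources used here. Of 32321 probe sets, 19158 have 1 gene symbol in the platform annotation and 1388 have several; only the former were named, by the brightest row per gene (18404 genes; 19128 symbols checked by Entrez identifier, 0 changed). The 4 group means were fitted together over all arrays (limma 3.58.1, R 4.3.3, 8 residual degrees of freedom), with Benjamini-Hochberg adjustment over all probe sets, after the fit was tested on simulated data. The genes and lists were chosen with earlier results of these data known. Named were the 9 measured genes, GATA3 and up to 4 genes per list with the smallest p between the lines. So were the 3 nearest profiles of genes that differ 2-fold. TOX and THEMIS relatives and LEF1 were named for kinship, CD14 and MS4A1 as defining markers, and FCN1, CD6, CD7 and CD8B for their level. Alternatives were a replicate block, quantile normalization, median centring, filters, other variance models, array weights (statmod 1.5.0) and leaving out arrays. The number of arrays limits the precision.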

Additional observations from a re-analysis of the deposited data

How the results depend on the processing

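The 3 T-cell genes that differed between the lines (THEMIS, TOX, CD4) passed under all 24 alternatives, from 4.57 to 4.92 for THEMIS, 3.31 to 3.47 for TOX and -2.00 to -1.48 for CD4, and no gene of the 9 passed between the labels under any. Among the other T-cell genes 14 passed; without the fold limit 36 did, and under the other alternatives 12 to 16. GATA3 by label in L-1236 was -0.071 after quantile normalization, and from -0.19 to 0.22 with single arrays left out; in U-HO1 it was -0.30 after quantile normalization, and from -0.62 to -0.10 with single arrays left out. Correlations of same-numbered arrays ran from -0.399 to 0.318. They were not compared with those of differently numbered arrays, so pairing by replicate number is not settled. With the replicate block, 3 of the 9 genes and 14 others passed between the lines. Leaving out dim probe sets, with a mean over all arrays under 7.04, kept 4 of the 9 genes and 47 of the 76 others. THEMIS, at 5.94 in L-1236, and CD4, at 6.75 in U-HO1, were kept only through the line where each is high. Their passing under that alternative is therefore not read as a result. Averaging several rows of a gene was not run, because each of the 9 has 1. Differences that passed no test changed sign in 80 of 730 refits, and leaving out pairs of arrays and the block within each line were chosen after seeing the data. Without a detection call, levels near the olfactory receptor range are not shown to be above background.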
